A study of Homo sapiens with 6 samples.

Results

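The miR-320 family and miR-484 were examined in Huh7 cells, a human hepatoma cell line. The members were taken by name, as every row of the deposited table called hsa-miR-320a to hsa-miR-320e or hsa-miR-484, and 6 of the 2588 mature human miRNAs listed there were found. Huh7 cells were transfected with a PLC5-CIR plasmid that carried hsa_circ_0098181 (overexpression group, n = 3) or with its control plasmid (control group, n = 3), and RNA was taken from all samples after 48 h. Both groups therefore received a lipid transfection reagent and a plasmid. The transfection was transient and only a single cell line was sequenced. No source states that the replicates came from separate cultures, so p-values measure the spread between these samples, which may be technical.

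Most miRNAs are cut from a long primary transcript by the nuclear enzyme Drosha and then from the hairpin by Dicer. miR-320a and miR-484 are known as exceptions that need Dicer but not Drosha. The hairpin of miR-320a begins at the transcription start, keeps the cap at its 5′ end and leaves the nucleus by exportin-1. miR-320a is known to repress the glycolytic enzyme PFKM, and miR-484 is known to repress the mitochondrial fission protein FIS1. The other miR-320 genes are paralogs whose processing was not measured here, and Drosha itself was not measured either.

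Mature sequences were found in RefSeq (GRCh38.p14) for 5 of the 6 members. They were looked up only by the exact name used in the deposited table. No entry was found under the name hsa-miR-320a, and other forms of that name were not searched. The seed, locus and seed matches of miR-320a were therefore not examined, although it held most of the counts of the family. The sequences found are shown because the family is defined by its shared 5′ end. Each is written 5′ to 3′ with the seed, bases 2 to 8, in capitals.
hsa-miR-320b: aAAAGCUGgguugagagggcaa
hsa-miR-320c: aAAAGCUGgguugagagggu
hsa-miR-320d: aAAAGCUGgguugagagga
hsa-miR-320e: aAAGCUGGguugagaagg
hsa-miR-484: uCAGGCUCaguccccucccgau

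miR-320b, miR-320c and miR-320d had the same seed, AAAGCUG. miR-320c was identical to miR-320b over its first 19 bases and differed by C20U, and miR-320d was identical over its first 18 bases and differed by G19A, where positions are counted from the 5′ end of miR-320b. miR-320e was aligned 1 base further in, with G17A as its only difference from miR-320b in the aligned part, so that its seed was AAGCUGG. Reads of miR-320b, miR-320c and miR-320d can be told apart only by their last bases, and miR-320e also by where it starts. How the authors assigned such reads is not given in the sources used here. The division of the counts among miR-320 members is therefore uncertain, and their sum is given as well. miR-484 was unrelated in sequence, with the seed CAGGCUC and a GC content of 63.6%, compared with 47.4% to 50% for the 4 miR-320 sequences. Outside the members, miR-4429 had the seed of miR-320b (2 counts over all 6 libraries), and miR-3155a and miR-3155b had that of miR-484 (0 counts each). This search covered only the 2281 of 2588 listed miRNAs for which a sequence was found.

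miR-484 lies on the plus strand of chromosome 16, from 15643301 to 15643322. In GENCODE release 29 (GRCh38), this is untranslated exon sequence of the protein-coding gene NDE1 on the same strand, 34 bases after the start of that gene. miR-320b has a pair of precursor genes on chromosome 1. MIR320B1 (mature sequence at 116671787 to 116671808, plus strand) overlapped no annotated gene apart from the miRNA, and MIR320B2 (224257049 to 224257070, minus strand) was in an intron of NVL on the same strand. The genes of miR-320c are both on the plus strand of chromosome 18 and lie in introns of genes on the opposite strand, MIR320C1 (21683559 to 21683578) in ABHD3 and MIR320C2 (24321716 to 24321735) in OSBPL1A. miR-320d comes from MIR320D1 on chromosome 13 (40727828 to 40727846) and MIR320D2 on chromosome X (140926172 to 140926190), both on the minus strand and outside other genes. MIR320E (chromosome 19, 46709294 to 46709311, minus strand) was in an intron of PRKD2 on the same strand. Since paired genes give the same mature sequence, the counts cannot be assigned to either of them. The sequences of miR-320b to miR-320e were on the 3′ side of the hairpin, with their first base at position 41 to 44 of 71 to 73. miR-484 was on the 5′ side, at position 8 of 79, and miR-320a was not placed. The table listed 838 miRNA names with both arms, and 0 of the 6 members were among them, because their names carry no arm. Whether their hairpins gave a product from the other arm could not be seen from these names.

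The libraries held 7144798 to 10786295 counts each, of which the members took 0.0747% to 0.131%. The 3 hepatocyte markers summed to 366024 to 383951 TPM with hsa_circ_0098181 and 346700 to 372454 TPM with the control plasmid. Most of this was miR-122-5p, at 306227 to 338897 TPM over all libraries. The 13 markers of blood, stroma and endothelium, muscle and neurons were listed at a sum of 3404 to 3500 TPM with hsa_circ_0098181 and 3321 to 3408 TPM with the control plasmid, mostly as miR-126-3p, a miRNA of endothelial cells (3186 to 3271 and 3053 to 3165 TPM). The 5 blood cell markers were low, but their sum did not overlap between the groups. It was 12.9 to 14.3 TPM with hsa_circ_0098181 and 17.0 to 19.2 TPM with the control plasmid. Most of this sum was miR-142-3p, at 8.38 to 9.78 and 12.1 to 16.8 TPM, and the other blood markers each overlapped. Outside blood, miR-126-3p and miR-143-3p did not overlap either. miR-126-3p was higher with hsa_circ_0098181, and miR-143-3p, a marker of stroma, was lower (77.8 to 85.3 against 85.6 to 96.2 TPM). Such gaps were not rare, since 15.4% of all miRNAs tested did not overlap after the normalization described below. The 3 muscle markers summed to 1.45 to 2.24 and 1.68 to 2.23 TPM. Over the 6 libraries, the lowest counts were those of miR-133a-3p (3) and miR-206 (6) for muscle and miR-144-3p (12) and miR-451a (36) for blood. The part of these markers in the results was not tested.

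The TPM values are counts scaled by the library total, without a length term. Levels of different members are set side by side on this scale, and how evenly their sequences were captured in the libraries was not measured. miR-320a was by far the most abundant member and ranked 64th of the 2588 miRNAs by its mean over the 6 samples, 892 TPM. It was followed by miR-484 (55.1 TPM, rank 185), miR-320c (30.6 TPM, rank 215), miR-320b (13.0 TPM, rank 285) and miR-320d (12.1 TPM, rank 292). miR-320a exceeded miR-484, miR-484 exceeded miR-320c, and miR-320c exceeded miR-320b in 6 of 6 libraries. The last neighbours did not separate, because miR-320b exceeded miR-320d in only 4 of 6 libraries, with a log2 ratio of 0.10 ± 0.15 (SD, n = 6). Within the miR-320 family, miR-320a held 94.0% ± 0.440 of the counts with hsa_circ_0098181 and 94.2% ± 0.285 with the control plasmid (SD, n = 3 each). miR-320c held 3.22% ± 0.254 and 3.23% ± 0.302, respectively.

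**Figure D1:**
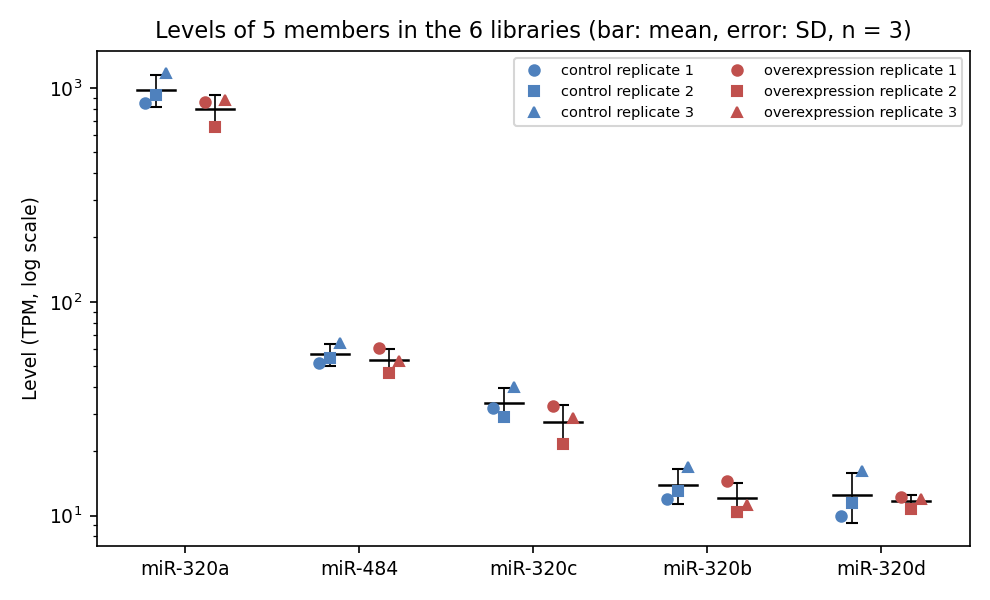
TPM of 5 members (log scale) in 3 control and 3 overexpression libraries, with points for single libraries, bars for the group mean and error bars for the SD. The order from miR-320a (mean 892 TPM) to miR-320d (mean 12.1 TPM) was the same in both groups, and the groups overlapped for every member drawn.

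The question of the comparison was whether miRNA levels changed when hsa_circ_0098181, which the study examined as a miRNA sponge, was overexpressed. None of the 5 members tested was called as changed. After normalization, miR-320a, miR-320b and miR-320c had lower means in the overexpression group, and miR-484 and miR-320d had nearly equal means. In every case single samples of the groups overlapped. The group comparison used edgeR's quasi-likelihood test on the counts with TMM factors, which correct for the composition of a library, and Benjamini-Hochberg adjustment over all miRNAs tested. Of the 6 members, 5 passed the filter on low counts, and 0 of the 5 had an adjusted p under 0.05 (percentage among all 552 miRNAs tested: 0). At an unadjusted p under 0.05 it was also 0 of 5, compared with 9.06% of all miRNAs tested (24 up and 26 down, or 1 up and 69 down when TMM factors were left out). By DESeq2, 0 of the 5 were called at either threshold, beside 0 (adjusted) and 41 (unadjusted) of all 552 miRNAs tested. The groups overlapped for 5 of 5 members, while 15.4% of all miRNAs tested did not overlap. The median log2 fold change of the 5 members was -0.089, with 3 lower and 2 higher, beside 0.0038 for all miRNAs tested.

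In what follows, the values of a group are given in the order of its replicates 1 to 3. miR-320a had 6891, 5572 and 7285 counts with hsa_circ_0098181 and 9155, 8069 and 8381 counts with the control plasmid. In TPM, these were 864, 658 and 879 with hsa_circ_0098181 and 849, 930 and 1173 with the control plasmid. Overexpression replicate 2 was the lowest and control replicate 3 the highest, and the other 4 libraries lay between 849 and 930 TPM. The group means were 800 ± 123 and 984 ± 169 TPM (SD, n = 3 each). This spread was 12.5 and 15.6 times that from counting alone. By edgeR, the log2 fold change was -0.18 ± 0.12 (SE), with a 95% interval of -0.43 to 0.070 and an adjusted p of 0.617. With the library size alone in place of TMM factors, it was -0.30 (adjusted p = 0.353, unadjusted p = 0.0392, both from edgeR), where the median of all miRNAs also moved from 0.0038 to -0.11. Without overexpression replicate 2 it was -0.089, and without control replicate 3 it was -0.091 (adjusted p = 0.934 and 0.573 from edgeR).

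miR-484 is also made without Drosha but is unrelated to miR-320a in sequence. It had 485, 392 and 436 counts with hsa_circ_0098181 and 560, 472 and 461 counts with the control plasmid. Its level was 60.8, 46.3 and 52.6 TPM in the former and 51.9, 54.4 and 64.5 TPM in the latter. As for miR-320a, overexpression replicate 2 was lowest and control replicate 3 highest. The means were 53.2 ± 7.27 and 56.9 ± 6.68 TPM (SD, n = 3 each). After TMM normalization, edgeR gave a log2 fold change of 0.019 ± 0.11 (SE), with a 95% interval of -0.23 to 0.26 and an adjusted p of 0.946. Its sign was not stable, since leaving out TMM factors gave -0.095 and leaving out overexpression replicate 1 gave -0.064. miR-484 varied less than most miRNAs, with a within-group SD of 0.12 on the log2 scale compared with a median of 0.20 over all miRNAs tested. It was not compared with miRNAs of a similar level only.

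miR-320c, the second member of the family by level, had 259, 183 and 237 counts with hsa_circ_0098181 and 344, 250 and 287 counts with the control plasmid. The corresponding levels were 32.5, 21.6 and 28.6 TPM and 31.9, 28.8 and 40.2 TPM, again with overexpression replicate 2 lowest and control replicate 3 highest. Its log2 fold change by edgeR was -0.17 ± 0.15 (SE), with a 95% interval of -0.49 to 0.15 and an adjusted p of 0.698. It was -0.053 without overexpression replicate 2 and -0.084 without control replicate 3.

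miR-320b and miR-320d, the members with about 100 counts a library, carried a larger counting error. miR-320b was found at 14.5, 10.4 and 11.2 TPM with hsa_circ_0098181 and at 12.0, 13.0 and 16.9 TPM with the control plasmid. Its log2 fold change was -0.089 ± 0.17 (SE, adjusted p = 0.835 from edgeR), with a 95% interval of -0.45 to 0.27, and without control replicate 3 it was 0.011. Its lowest and highest libraries were again overexpression replicate 2 and control replicate 3. miR-320d was found at 12.3, 10.7 and 11.9 TPM with hsa_circ_0098181 and at 9.92, 11.4 and 16.2 TPM with the control plasmid. Its overexpression samples differed by less than counting error predicts (SD 0.808 TPM, with 1.19 TPM from counting alone), while the controls spread over 3.30 TPM (SD). The log2 fold change of miR-320d by edgeR was 0.033 ± 0.17 (SE), with a 95% interval of -0.34 to 0.41 and an adjusted p of 0.931. It was 0.20 without control replicate 3 and -0.10 without control replicate 1.

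miR-320e was at the limit of detection and was not tested. It had 0, 3 and 0 counts with hsa_circ_0098181 and 1, 2 and 0 counts with the control plasmid. A count of 0 allows up to 3 counts, or 0.278 to 0.420 TPM at the depth of these libraries, for counting error only, and no library was above this limit.

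**Figure D2:**
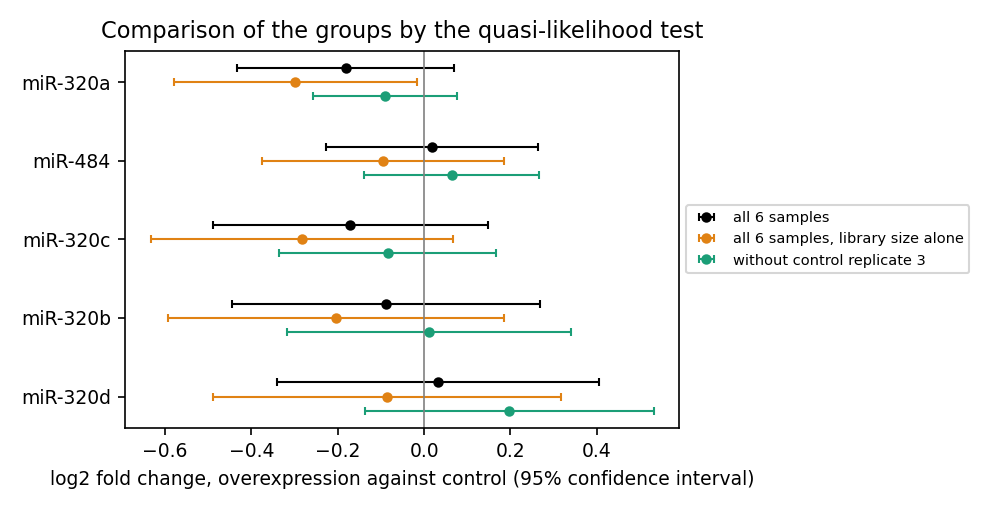
log2 fold change of 5 members between the overexpression and control groups from edgeR, with 95% confidence intervals, for TMM factors, for the library size alone and without control replicate 3. All intervals include 0 except that of miR-320a with the library size alone (log2 fold change -0.30, adjusted p = 0.353).

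Because all the members share a total, single libraries were also compared with the others of their group. Only control replicate 3 and overexpression replicate 2 were used, the highest and lowest libraries of miR-320a. The differences below therefore partly restate that choice and are not a test. Control replicate 3 stood above the mean of control replicates 1 and 2 for all 5 members tested, by 0.31 for miR-320a, 0.34 for miR-320b, 0.31 for miR-320c, 0.50 for miR-320d and 0.18 for miR-484 on the log2 scale after TMM normalization. Between 70.1% and 90.8% of all miRNAs tested had a lower difference in the same libraries, with a median of 0.0053. In the same way, overexpression replicate 2 was below the mean of overexpression replicates 1 and 3 for all 5, by -0.31 for miR-320a, -0.40 for miR-320c, -0.20 for miR-320b, -0.20 for miR-484 and -0.079 for miR-320d, with a median of 0.020 over all miRNAs tested. Between 8.33% and 36.4% of all miRNAs tested had a lower difference there, with miR-320d at 36.4%. Some other library values were also extreme in these libraries. Control replicate 3 had the fewest counts (7144798), the highest TMM factor (1.09) and the lowest level of miR-122-5p (306227 TPM). Overexpression replicate 2 had the lowest TMM factor (0.921) and the highest level of miR-122-5p (338897 TPM). Its depth was not extreme (8469016 counts), and control replicate 1 had the most counts (10786295). Their part in the levels of the members was not tested. When control replicate 3 was left out, edgeR called 9.91% of 565 miRNAs at an adjusted p under 0.05, and 0 of the 5 members were among them. At an unadjusted p under 0.05 it was also 0 of the 5 members, beside 119 of the 565 miRNAs. The log2 fold changes of the members were between -0.091 and 0.20.

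**Figure D3:**
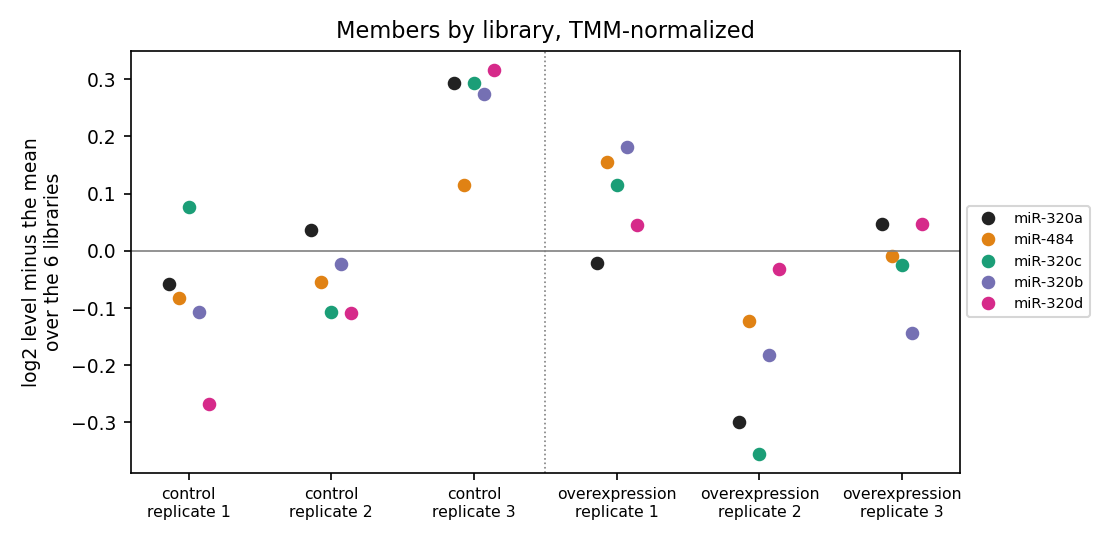
log2 level of 5 members in each library (TMM-normalized) as the difference from the mean of that member over the 6 libraries. In control replicate 3 all 5 points lie above 0 (0.11 to 0.32) and in overexpression replicate 2 all 5 lie below 0 (-0.35 to -0.032).

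The sum over miR-320a to miR-320e does not depend on how reads were divided among them if each read was counted once. Whether that was so is not given in the sources used here. Summed in this way, the family reached 927, 762 and 962 TMM-normalized CPM with hsa_circ_0098181. With the control plasmid, the sum was 899, 953 and 1146. The means were 884 ± 107 and 999 ± 130 (SD, n = 3 each), a log2 change of -0.18, and the groups overlapped. Since miR-320a makes up nearly all of the sum, its libraries had the same order. The log2 change was -0.068 without control replicate 3, -0.081 without overexpression replicate 2 and -0.29 with the library size alone.

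The balance between members was then compared within each library, where neither the library size nor the scaling enters. The log2 ratio of miR-484 to miR-320a was -3.83, -3.83 and -4.06 with hsa_circ_0098181 and -4.03, -4.09 and -4.18 with the control plasmid. It was thus higher in overexpression replicates 1 and 2 than in any control, and overexpression replicate 3 lay among the controls. The means, -3.91 ± 0.135 and -4.10 ± 0.0768 (SD, n = 3 each), differed by 0.20 (two-sided exact permutation test, p = 0.2, adjusted p = 0.4 over 4 ratios). The log2 ratio of miR-320d to miR-320a was -6.13, -5.93 and -6.19 with hsa_circ_0098181 and -6.41, -6.34 and -6.17 with the control plasmid, a difference of 0.22 (exact permutation test, p = 0.2, adjusted p = 0.4). For miR-320b and miR-320c the differences were 0.086 (exact permutation test, p = 0.6, adjusted p = 0.8) and 0.0042 (exact permutation test, p = 0.9, adjusted p = 0.9). With 3 samples against 3 this exact permutation test cannot go below p = 0.1, so that none of the ratios could reach 0.05. The size of the smaller differences rested on single libraries. For miR-320b it was 0.0043 without overexpression replicate 1 and 0.20 without overexpression replicate 3, and for miR-320c it was -0.063 without overexpression replicate 1.

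Other miRNAs with unusual biogenesis were followed for comparison. Of the mirtrons, whose hairpins are spliced introns and also bypass Drosha, 24 were listed, 15 had a count and 2 were tested, of which 0 were called. miR-1226-3p was at 16.6 ± 4.43 TPM with hsa_circ_0098181 and 16.3 ± 2.66 TPM with the control plasmid (SD, n = 3 each), with a log2 fold change of 0.15 (adjusted p = 0.781 from edgeR). miR-877-5p was at 10.9 ± 0.826 and 14.6 ± 3.80 TPM, with a log2 fold change of -0.29 (adjusted p = 0.598 from edgeR). In TPM, miR-877-5p was highest in control replicate 3 (18.6 TPM), as the 5 abundant members were. After TMM normalization, miR-484 was no longer highest in that library. miR-1226-3p was highest in overexpression replicate 3 (21.6 TPM, with 19.2 TPM in control replicate 3). Of 7 miRNAs that overlap small nucleolar RNAs, 4 were tested and 0 were called. miR-1248 of this list did not follow the members, since it was lowest in overexpression replicate 1 (103 TPM) and between 329 and 539 TPM in the other libraries. miR-451a, which is made without Dicer, had 36 counts in all and was not tested.

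The miRNAs with a pattern most like that of a member were listed by Pearson's r of the log2 level over the 6 samples, among 303 abundant miRNAs that were not members. For miR-320a these were miR-532-3p (r = 0.97), miR-423-5p (r = 0.97) and miR-3140-3p (r = 0.96), and the median r was -0.14. For miR-484 they were miR-941 (r = 0.93), miR-200b-3p (r = 0.91) and miR-3187-3p (r = 0.88), with a median of -0.13. These values rest on 6 samples, are the highest of 303 candidates, and come from points that share library size and composition.

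Finally, 7-base matches to the seeds were counted on the sense strand of the longest protein-coding transcript of 2 genes in GENCODE release 29. SOX5 is the host gene of hsa_circ_0098181 according to the study, and PPARA, a nuclear receptor of lipid metabolism, is the target it examined. CAGCTTT, complementary to the seed of miR-320b, miR-320c and miR-320d, occurred 0 times in the 6975 bases of SOX5-221 and in 0 of 22 SOX5 transcripts. For comparison, 57.1% of 1952 protein-coding transcripts within 10% of that length held it, with a mean of 0.83 matches. It occurred 4 times in the 9995 bases of PPARA-203, first at base 6445. Of 722 transcripts of similar length, 65.9% held it, with a mean of 1.18 matches. It was found in only 2 of 12 PPARA transcripts, which were counted whatever their length. GAGCCTG, complementary to the seed of miR-484, occurred 3 times in SOX5-221 (55.7% of similar transcripts held it, mean 1.01 matches). It occurred 2 times in PPARA-203 (65.2%, mean 1.34), and was found in 8 of 22 SOX5 and 2 of 12 PPARA transcripts. CCAGCTT, complementary to the seed of miR-320e, shares 6 letters with CAGCTTT, so that their matches can overlap. It occurred 0 times in SOX5-221 (50.1%, mean 0.74) and 3 times in PPARA-203 (62.6%, mean 1.04). It was found in 0 of 22 SOX5 and 5 of 12 PPARA transcripts. These are matches of letters in linear transcripts, and the sequence of the circular RNA itself was not used here. miR-320a was not included, because no sequence was found under the exact name in the deposited table.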

How the data were processed

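miRNA sequencing of 6 Huh7 samples (3 overexpression, 3 control) was used, grouped by sample titles. The authors deposited raw counts of reads per mature miRNA and TPM values, which equal the count scaled by the library total (CPM) to within 0.00303. The submitters' processing notes name TopHat2 2.0.9, TopHat, Bowtie and hg38 without their role. Trimming, annotation and multi-matching reads are not given in the sources used here. How shortened or shared reads were assigned could move counts among the miR-320 members.

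Counts were analysed with R 4.3.3 and edgeR 4.0.16 (filterByExpr with a minimum count of 10 and total of 15, TMM, quasi-likelihood test, two-sided, threshold 0.05). Alternatives used DESeq2 1.42.0 and limma 3.58.1. The limma fits used the log2 of counts scaled by the library total, without TMM factors. The test was checked on simulated counts. Ratios had 0.5 added to each count. The median total was 8379124 counts, and the limit that a count of 0 allows includes no error but that of counting. No molecular identifiers are named.

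Members and lists were chosen with earlier results of these data known. All members were named. Other miRNAs named were the 3 most correlated with miR-320a and miR-484 (mean of at least 10 CPM), tested miRNAs of related biogenesis at that level, marker miRNAs, and those sharing a seed, the last chosen afterwards. The seed matches in transcripts were also added after the data were seen. They were first counted in SOX5-202 and PPARA-201, chosen without a rule, with the same numbers of matches as in the transcripts reported.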

Additional observations from a re-analysis of the deposited data

How the results depend on the processing

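In every fit, edgeR, DESeq2 and limma alternatives included, 0 members had an adjusted p under 0.05. The log2 fold changes of miR-320a and miR-320c stayed negative throughout, and those near 0 changed sign. For miR-320d (0.033 with TMM factors) the value was -0.086 with the library size alone, -0.047 when miR-122-5p was taken out of the library size, -0.070 and -0.073 by limma with 1 or 0.1 added, and -0.0052 after the GC correction, which could use 493 of 552 miRNAs (89.3%) and left out miR-320a. For miR-484 (0.019) it was -0.095, -0.058, -0.098 and -0.0998 in the first 4 of these and -0.0013 without a filter. The first 4 of these settings, the limma fits included, all left out TMM factors. They also moved the median of all miRNAs down (-0.11, -0.075, -0.097 and -0.11). The cause of the other sign changes was not tested. Leaving out a sample gave -0.10 to 0.20 for miR-320d, -0.064 to 0.078 for miR-484, -0.22 to 0.011 for miR-320b (above 0 without control replicate 3) and -0.066 to 0.073 for the group difference in the ratio of miR-320c to miR-320a (log2), below 0 without overexpression replicate 1 or control replicate 2. For the ratio of miR-320b to miR-320a it gave 0.0043 to 0.20. The median of the members lay between -0.22 and -0.026 over these fits, except 0.011 without control replicate 3.

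Whether replicate numbers pair the samples was not settled. Correlations of deviations between samples of the same number were -0.11, 0.16 and 0.21 over 192 miRNAs, and samples of different numbers were not compared. Over all miRNAs, 0 were called by edgeR (50 at an unadjusted p under 0.05) and by DESeq2 (41). With the library size alone 3 were called, and 3 by limma with 1 added, which also left out TMM factors. By edgeR, 6 were called without a filter and 56 without control replicate 3. With the replicate block, the median of the members was -0.0896 and no call changed. Intervals of about 0.25 (miR-320a, miR-484) to 0.37 (miR-320d) on either side limit what could be seen.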
